A study of Homo sapiens with 10 samples.

Results

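The hepatic onset described here is the step between day 5 and day 7 of a hepatic differentiation of H1 cells, a widely used human embryonic stem cell (hESC) line, both days in medium with FGF4 and BMP2. The genes considered were chosen by level alone. A gene entered when the larger of its day 5 and day 7 values was 50 or more, which held for 8755 of the 12125 genes of the table. RNA of bulk cultures was sequenced on days 0 to 3 and then on days 5, 7, 9, 11, 13 and 21, with 1 library for each of the 10 days. Undifferentiated cells (day 0) received Activin A at 100 ng per ml for 3 days (days 1 to 3), then BMP2 at 20 ng per ml and FGF4 at 30 ng per ml for 4 days (days 5 and 7), then HGF and KGF at 20 ng per ml each for 6 days (days 9 and 11), then Oncostatin M (OSM) at 20 ng per ml for 8 days. The medium of the day 13 library is uncertain, since its labels name OSM while the days of the scheme add up to the last day of HGF and KGF. The labels presume the day 5 cells to be early hepatoblasts and the day 7 cells to be hepatoblasts. Every library came from the same line, and the course holds no culture kept without FGF4 and BMP2 over these days, so that time and growth factors cannot be told apart.

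During embryonic development the liver buds from foregut endoderm that receives FGF signals from the cardiac mesoderm and BMP signals from the septum transversum mesenchyme. The bipotent hepatoblasts that form there begin to secrete plasma proteins, with alpha-fetoprotein before albumin, and to assemble lipoproteins. Transcription factors of the HNF1, HNF4, FOXA and C/EBP families are known to bind in the promoters and enhancers of such genes.

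The values are GC-normalized by the authors, and their distribution is nearly the same in every library. The median value was 82 at both day 5 and day 7, and the highest value was 18734 in each. Values of 2000 or more lay in 11 narrow levels, each shared by 10 genes on day 5 and by 10 on day 7, so that a gene at the highest level cannot rise further and a large value is close to a rank. The values are not scaled to transcript length, and levels are compared between days and never between genes. Sums over a list add such values as they are and weigh its highest members most. Differences are those of log2(value + 1), and folds are plain ratios of the values. With 1 library on each side no test was possible. The yardstick was the difference between day 11 and day 9, a pair of libraries that also lie 2 days apart in a shared medium.

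Between day 5 and day 7, 197 genes were at least 4-fold higher (2.25% of the genes considered) and 117 at least 4-fold lower (1.34%), that is, with a log2 difference of 2 or more in size. Only these are called risen or fallen below. Of the 197, 160 had a value under 50 on day 5 and passed the level filter through day 7 alone, so that counts and medians of gene lists past the filter are descriptions and support nothing. Between day 9 and day 11, 9 of 8444 genes were at least 4-fold higher (0.107%) and 9 at least 4-fold lower (0.107%). The differences between day 5 and day 7 had an SD of 0.858 on the log2 scale, against 0.358 for the yardstick. A size of 1.14 marked the 99th percentile of the yardstick, and 3.33 that of the step from day 5 to day 7. A 2-fold difference in either direction was reached by 1230 genes (14%) in the FGF4 and BMP2 step and by 136 (1.61%) between day 9 and day 11. The median difference was -0.02. Since the values have nearly the same distribution in every library, a shift of all genes together could not show.

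**Figure D1:**
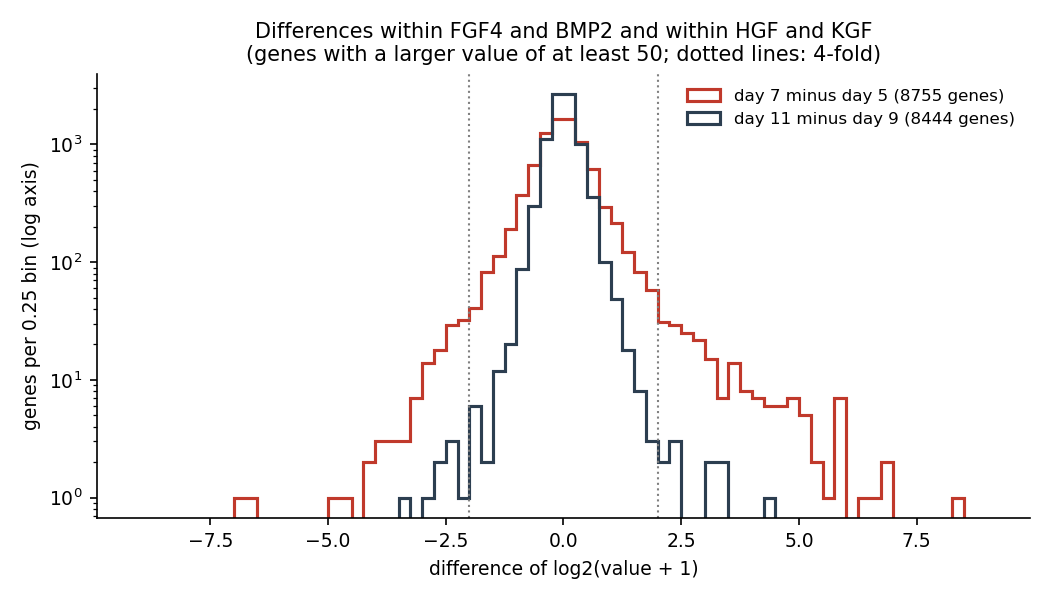
Number of genes (log axis) by the difference of log2(value + 1), in bins of 0.25, for day 7 minus day 5 (8755 genes) and day 11 minus day 9 (8444 genes), with dotted lines at 4-fold. The step within FGF4 and BMP2 spreads wider on both sides, with 197 genes beyond the upper and 117 beyond the lower line, against 9 and 9.

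The spread of the yardstick depended little on level. In 5 classes of the larger value, from 50 to under 100 up to 2000 or more, the 99th percentile of the size of the day 11 minus day 9 difference lay between 1.00 and 1.26. The limits of the rule cut through a continuous range. There were 80 genes with a larger value of exactly 50, just inside, and 65 at 49, just outside. At the fold limit, 13 risen genes lay within 0.1 above the log2 limit of 2 and 24 genes within 0.1 below it. On the falling side these numbers were 17 and 15.

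The 3 marker genes given for the stage rose together. AFP encodes alpha-fetoprotein, the main carrier protein of foetal plasma, and lies on chromosome 4 from 74296855 to 74302927 in the interval of the table, whose build is not named there. It had values of 28, 40, 44 and 33 on days 0 to 3, 342 on day 5 and 18734, the top of the scale, from day 7 to day 21. The ratio of day 7 to day 5 was 54.8 (log2 difference 5.77), and no later change in AFP can be seen because the gene stayed among the 10 highest. TTR encodes transthyretin, the carrier of thyroxine and of the retinol-binding protein (chromosome 18, 29171689 to 29178974 in the table). It was listed at 0 on days 2 and 3, at 26 on day 5 and at 3430 on day 7, and it reached 18734 on day 9. This was among the largest rises of all (ratio 132, log2 difference 6.99). APOA2, an apolipoprotein of high-density lipoprotein (chromosome 1, 161192082 to 161193403), started earlier. Its values were 0, 3, 8 and 42 on days 0 to 3, 232 on day 5, 1886 on day 7 and between 2164 and 2636 from day 9 on, with a ratio of 8.13 (log2 difference 3.02) between day 5 and day 7. Between day 9 and day 11 the difference was 0 for AFP and TTR, both at the top level, and -0.12 for APOA2.

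**Figure D2:**
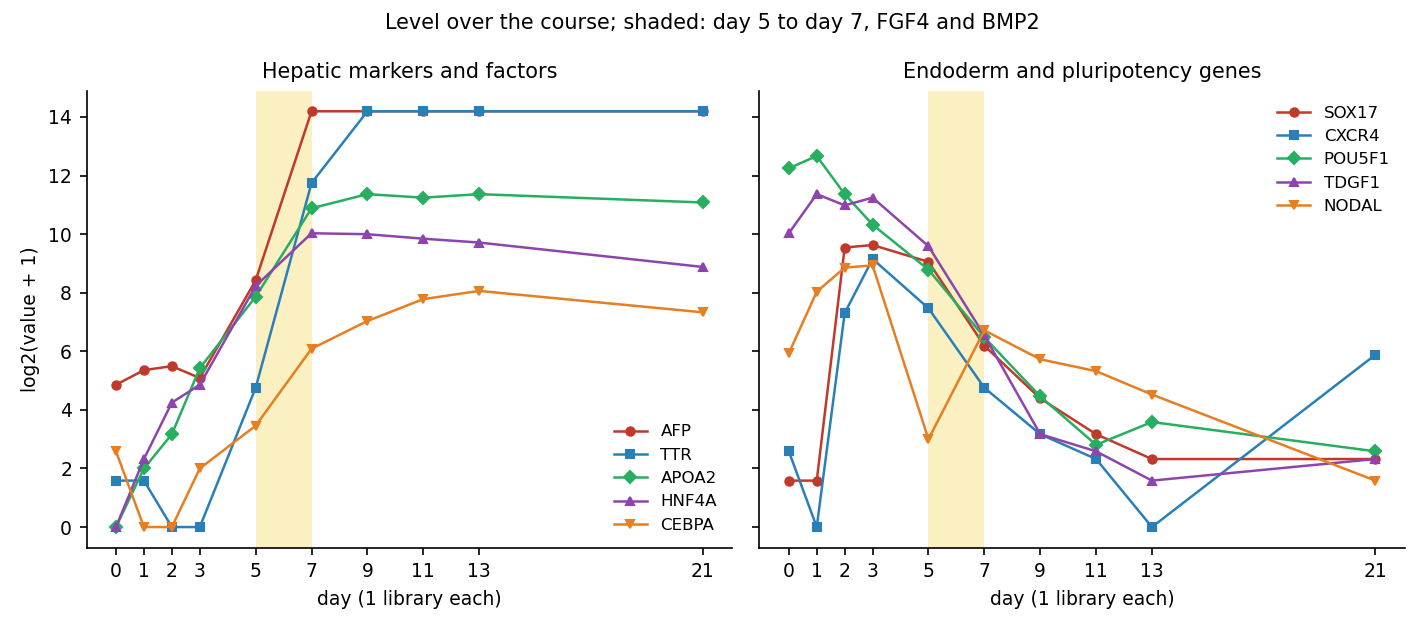
log2(value + 1) of 10 genes by day, 1 library each, with the interval from day 5 to day 7 shaded. AFP, TTR, APOA2, HNF4A and CEBPA (left) were all higher on day 7 than on day 5, whereas SOX17, CXCR4, POU5F1 and TDGF1 (right) were lower and NODAL was higher, at 104 against 7.

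The promoters of AFP and APOA2 and of 3 genes among the 15 largest rises, MTTP, SULT1E1 and FABP1, are shown because they hold letters bound by the factors named above. Each is the 250 bases before a RefSeq start site in build GRCh38.p14, read on the strand of the gene and credited to RefSeq. Capitals mark matches on either strand to TTAATNATT (HNF1), TGTTTAC or TGTTTGC (FOXA), TTGCNNAA (C/EBP) and TATAAA (the TATA box). AFP lies at chr4:73435971-73436220 on the plus strand, APOA2 at chr1:161223629-161223878 on the minus strand, the second of the MTTP promoters at chr4:99574574-99574823 on the plus strand, SULT1E1 at chr4:69860146-69860395 on the minus strand and FABP1 at chr2:88128063-88128312 on the minus strand.
AFP: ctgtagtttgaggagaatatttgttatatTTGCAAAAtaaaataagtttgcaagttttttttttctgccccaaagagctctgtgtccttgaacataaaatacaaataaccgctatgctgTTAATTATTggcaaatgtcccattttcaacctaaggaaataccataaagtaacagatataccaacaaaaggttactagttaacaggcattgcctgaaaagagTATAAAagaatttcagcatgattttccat
APOA2: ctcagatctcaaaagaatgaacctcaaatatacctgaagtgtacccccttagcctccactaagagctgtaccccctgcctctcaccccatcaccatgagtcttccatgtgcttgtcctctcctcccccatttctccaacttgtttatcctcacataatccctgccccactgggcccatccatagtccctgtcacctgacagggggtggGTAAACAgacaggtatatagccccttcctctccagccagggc
MTTP: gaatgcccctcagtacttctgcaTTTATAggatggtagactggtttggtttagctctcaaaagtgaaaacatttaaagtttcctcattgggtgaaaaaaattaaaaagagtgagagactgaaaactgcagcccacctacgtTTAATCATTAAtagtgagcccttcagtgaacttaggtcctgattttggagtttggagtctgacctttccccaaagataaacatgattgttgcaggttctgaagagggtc
SULT1E1: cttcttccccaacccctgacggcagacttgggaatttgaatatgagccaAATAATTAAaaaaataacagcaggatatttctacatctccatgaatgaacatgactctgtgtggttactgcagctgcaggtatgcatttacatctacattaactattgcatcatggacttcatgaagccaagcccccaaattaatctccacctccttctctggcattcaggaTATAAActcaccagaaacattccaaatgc
FABP1: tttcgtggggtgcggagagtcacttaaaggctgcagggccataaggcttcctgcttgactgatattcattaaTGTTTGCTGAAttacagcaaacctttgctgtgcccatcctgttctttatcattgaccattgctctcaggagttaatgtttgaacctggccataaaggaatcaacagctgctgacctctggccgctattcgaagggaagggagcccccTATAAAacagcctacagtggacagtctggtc
In AFP the HNF1 letters begin at base -131 from the start site, the C/EBP letters at -221 and the TATA box at -29. APOA2 holds the FOXA letters at -42 on the opposite strand. In MTTP the HNF1 letters match on both strands, at -109 and -107, and the run of capitals is their union. SULT1E1 has them at -201 on the opposite strand, and FABP1 has FOXA letters at -178 that overlap C/EBP letters at -175. The promoters of GCGR, SLC39A5, SLC13A5 and CREB3L3, also among the 15 largest rises, and the first MTTP promoter held none of these letters, and both FGB promoters held C/EBP letters. TTR had no entry in the promoter table.

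Over all risen genes, 165 of the 197 were matched to 256 such promoters, and 10 of these promoters (3.91%) held the HNF1 letters. Among the fallen genes it was 0 of 116 promoters (79 of the 117 genes matched), among all genes considered 64 of 10608 (0.603%), and over every promoter of the reference 412 of 35116 (1.17%). Counted by gene, the letters were found in 10 of 165 risen genes (6.06%), 0 of 79 fallen genes and 59 of 7157 of all genes considered (0.824%). These are AFP, MTTP, SULT1E1, the fibrinogen gene FGA, the gap junction gene GJB1, CUBN, GLYCTK, HABP2, MEF2C and RASSF6. The HNF4 letters CAAAGTCCA and CAAAGGTCA were each in 4 promoters of risen genes (1.56%), against 0.264% and 0.198% of all genes considered and 0.325% and 0.339% of the whole reference. Other letters differed less. TGTTTAC was in 3.52% of promoters of risen genes, 2.19% of all considered and 2.98% of the whole reference. For TGTTTGC the shares were 4.3%, 2.38% and 3.23%, and for TTGCNNAA 9.77%, 6% and 9.05%. The TATA box was in 14.8% of promoters of risen and 12.1% of promoters of fallen genes, against 5.51% of all considered and 10.7% of the whole reference. The median GC content was 58.6% in promoters of risen genes, 64% in those of fallen genes and 65.2% in all considered. The part of base composition in these shares was not tested.

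Several secreted plasma proteins rose over the step. Of 58 genes listed, 36 were in the table and 16 passed the level filter, of which 10 rose and 0 fell. Only AFP and FGB of the 10 were at 50 or more on day 5, and the other 8 passed the filter through day 7 alone. Without a filter 19 of the 36 were at least 4-fold higher and 0 lower, beside 408 higher and 280 lower of all 12125 genes. Some of the 19 had small values on both days, such as SERPINA6 (0 and 5) and CFI (1 and 9). The median log2 difference was 3.56 over the 16 and 2.22 over the 36, and 0.24 for the 25 that passed the filter between day 9 and day 11. The values of the 36 genes together summed to 1840 on day 5, 31185 on day 7 and 50580 on day 9. AFP alone was 18734 of the sum on day 7, and on day 9 AFP and TTR each stood at 18734, the top level. The list members that rose are carriers (AFP, TTR and RBP4), coagulation proteins (FGA, FGB, F2 and F7) and serpins (SERPINA1, SERPINF1 and SERPINF2).

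The fibrinogen chains, which form the clot and are encoded side by side on chromosome 4, did not move by the same amount. FGB, the beta chain, had a value of 52 on day 5 and 4866 on days 7, 9 and 11 (ratio 93.6, log2 difference 6.52). FGA, the alpha chain, went from 49 to 1554 and on to 3428 on day 9 (ratio 31.7). FGG, the gamma chain, had 5 and 34 and did not pass the filter, and it reached 1327 only on day 21. Thrombin (F2) rose from 7 to 106 and factor VII (F7) from 2 to 98. The antiplasmin gene SERPINF2 rose from 10 to 227 (ratio 22.7), and SERPINF1, encoding the factor PEDF, from 30 to 338 (ratio 11.3). RBP4, which carries retinol in plasma, rose from 16 to 214 and was at 823 on day 9, and the alpha-1-antitrypsin gene SERPINA1 rose from 8 to 56 and was at 704 on day 9.

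ALB and some other plasma proteins of the mature liver differed little over the step. ALB, encoding albumin, lies next to AFP on chromosome 4 (74262831 to 74275174 in the table), and had a value of 62 on day 5, 65 on day 7, 72 on day 9 and 4866 on day 21. Its log2 difference of 0.07 lay well inside the yardstick of its class (1.26), while that of its neighbour was 5.77. Transferrin (TF) had values of 8 and 5, AHSG (fetuin-A) of 20 and 18 and the bikunin precursor AMBP of 26 and 28, all below the filter at both days. TF was at 3865 and AHSG at 6495 on day 21. AGT, encoding angiotensinogen, was listed at 0 on day 5 and had 33 on day 7, a difference as wide as those above but under the filter. It is 1 of 211 genes that were at least 4-fold higher with both values under 50, and 163 such genes were lower. Also among the 211 were other plasma protein genes of the list, such as SERPINC1 (2 and 22), SERPIND1 (5 and 29), ITIH4 (6 and 47), A2M (2 and 12) and CFB (1 and 12).

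Lipoprotein genes differed in when they rose. Of 16 genes found, 12 passed the filter, 5 rose, 1 fell, and the median log2 difference was 1.05, which became 0.66 without genes at 2000 or more. APOB, the structural protein of very-low-density lipoprotein, rose from 186 to 4856 (ratio 26.1). MTTP, which transfers lipid onto APOB in the endoplasmic reticulum, rose from 47 to 2972 (ratio 63.2) and fell back to 464 by day 21. The interval of MTTP overlaps that of RG9MTD2 in the table. APOM rose from 6 to 198, and FABP1, the fatty acid-binding protein of the liver, was listed at 0 on day 5 and had 56 on day 7. By contrast, APOA1 had already reached 2796 on day 5 and had 4855 on day 7 (log2 difference 0.80), and APOE had 3428 at both days. APOA4 had 113 and 82 and APOC3 had 3 and 8, and they were at 4855 and 2968 only on day 21. Of 11 genes of sterol synthesis and uptake, a list chosen after values had been seen, 0 rose, 0 fell and the median was 0.17.

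Enzymes of liver metabolism rose in part. The liver enzyme list had 20 genes in the table, 13 past the filter, 5 risen, 0 fallen and a median of 1.43. SULT1E1, which sulfates oestrogens, was listed at 0 through day 5 and had 59 on day 7 and 186 on day 11. AKR1D1, a reductase of bile acid and steroid synthesis, rose from 4 to 186 (ratio 46.5). ALDH1A1, a retinaldehyde dehydrogenase, rose from 24 to 876 (ratio 36.5) and was down at 96 by day 13. GSTA2 rose from 36 to 192, although its reads may be shared with the near-identical GSTA1. The urea cycle did not follow. CPS1 had 86 and 62, ASS1 956 and 340, and ASL 44 and 37. Outside the list, FTCD of histidine breakdown (4 to 137), DDC, the aromatic amino acid decarboxylase (4 to 124), and catalase (CAT, 16 to 111) also rose.

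The 15 largest rises also include a hormone receptor, transporters and a ligand. GCGR, the glucagon receptor, was listed at 0 on day 5, 126 on day 7 and 198 on day 9. SLC39A5, a zinc transporter, rose from 4 to 290 (ratio 72.5), and the citrate transporter SLC13A5 from 3 to 206 (ratio 68.7). WNT11, a ligand of the Wnt family, had values of 1 on day 5, 125 on day 7 and 251 on day 13. FAM19A4, a small secreted protein, rose from 4 to 198. Of the remaining members, PIGY was erratic over the course, with 59 on day 3, 0 on day 5, 76 on day 7 and 4 on day 13, and its interval overlaps that of HERC3. ANKRD20A1 (0 to 60) belongs to a family of near-identical copies, so that its reads are uncertain.

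Several receptors and transporters rose in the same 2 days, named here after their values were seen. KLB, the co-receptor for the FGF19 subfamily, rose from 6 to 127, the growth hormone receptor GHR from 13 to 80, the interleukin-6 receptor IL6R from 18 to 91 and the leptin receptor LEPR from 20 to 84. CUBN and LRP2, the endocytic partners cubilin and megalin, rose from 20 to 642 and from 216 to 1488. AQP3, a channel for water and glycerol, rose from 14 to 410, the organic anion transporter SLCO2B1 from 16 to 386, and ABCC2, the export pump of the canalicular membrane, from 15 to 178. All of these but LRP2 and ABCC2 were at or above their day 7 value on 1 or more later days.

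Most hepatic transcription factors past the filter stayed short of 4-fold. Of 15 past the filter 2 rose, 0 fell and the median was 0.78, beside -0.02 for all genes. Without a filter the median was 0.88 over the 20 found. CREB3L3, a factor of the endoplasmic reticulum membrane that acts in hepatic lipid metabolism, rose from 2 to 114 (ratio 57.0). CEBPA, a regulator of hepatocyte genes, rose from 10 to 67 (ratio 6.70) and went on to 266 on day 13. HNF4A, which is needed for hepatocyte differentiation, had values of 299 on day 5, 1044 on day 7 and 1021 on day 9. Its log2 difference of 1.80 missed 4-fold but exceeded the 99th percentile of the yardstick in its class (1.00). It had already gone from 28 on day 3 to 299 on day 5. FOXA2 had 184 and 343, FOXA1 62 and 121, HHEX 28 and 79, TBX3 470 and 768, and GATA4 530 and 354, all short of 4-fold.

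Hepatoblast surface genes gave 2 rises and 1 fall among 11, with a median of 0.54 that became -0.21 without the genes at 2000 or more. GPC3, a foetal liver glypican, rose from 308 to 3428 (ratio 11.1) and DLK1, a hepatoblast surface protein, from 20 to 106 (ratio 5.30). EPCAM had 1279 and 1108 and CDH1 had 444 and 384. The keratin partners KRT8 and KRT18, which form 1 filament, went opposite ways. KRT8 had 6498 on day 5 and 18734 on day 7 (log2 difference 1.53), whereas KRT18 fell from 18734 to 3860 (log2 difference -2.28). Each of these values is a shared level of the scale, and both genes have many processed copies in the genome that could take their reads.

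Genes of the definitive endoderm, the germ layer made under Activin A, fell more often than they rose. Of 14 past the filter 6 fell and NODAL rose, with a median of -1.02 that became -1.72 under a filter of 200. SOX17, the defining endoderm factor, had 790 on day 3, 530 on day 5, 72 on day 7 and 20 on day 9 (day 5 to day 7 ratio 7.36). EOMES fell from 230 to 35, the chemokine receptor CXCR4 from 176 to 26, the retinoic acid hydroxylase CYP26A1 from 346 to 51, FGF17 from 90 to 5 and the hyaluronan synthase HAS2 from 1488 to 230. CER1, at the top of the scale on days 2 and 3, was already down at 9 on day 5. NODAL, the ligand that Activin A stands in for, went the other way, with 488 on day 3, 7 on day 5, 104 on day 7 and 52 on day 9. The Nodal targets LEFTY1 (8 and 0) and LEFTY2 (10 and 5) were below the filter and not higher. Of the 14 genes past the filter, 4 were higher and 10 lower on day 7. Short of 4-fold, APLNR (69 and 190), KIT (139 and 248) and FRZB (2643 and 2802) were higher. OTX2 (154 and 68), GATA3 (388 and 261), PRDM1 (239 and 141) and LHX1 (50 and 27) were lower by less than 4-fold.

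Of 11 pluripotency genes past the filter, 4 fell, 0 rose and all 11 had negative differences, with a median of -0.93. POU5F1 fell from 440 to 88, TDGF1, the co-receptor of Nodal, from 768 to 92, L1TD1 from 260 to 50 and ZSCAN10 from 66 to 6. The interval of POU5F1 overlaps that of TCF19. DNMT3B had 544 and 407, LIN28A 4862 and 2970, and ZFP42 242 and 227. SOX2 (2 and 0), PRDM14 (2 and 0), NANOG (26 and 32) and GDF3 (13 and 42) were below the filter on both days. Of these, NANOG and GDF3 were higher on day 7, with log2 differences of 0.29 and 1.62.

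Among the 15 largest falls were genes that stood high on day 5. TNC, the matrix protein tenascin C, had 2798 on days 3 and 5 and 112 on day 7 (ratio 25.0, log2 difference -4.63). FBN2, the fibrillin of embryonic microfibrils, had 1185 on day 3, 18734 on day 5 and 1326 on day 7 (ratio 14.1). COCH, a secreted matrix protein, fell from 852 to 52, and KITLG, the ligand of the receptor KIT, from 3868 to 374 (ratio 10.3). KITLG had 178 on day 3, so that its high level was seen on day 5 alone. The cystatin genes CST1 and CST2, named after their values were seen, had the same shape. CST1 had 37 on day 3, 6493 on day 5, 1214 on day 7 and 52 on day 9, and CST2 had 0, 242, 40 and 1. The smaller members of the 15 were GJA5 (57 to 1), SHISA3 (50 to 2), ITPKB (80 to 5), ATP8A1 (234 to 18), SLC7A14 (56 to 4) and CRHBP (282 to 26), beside FGF17 and ZSCAN10. The largest log2 differences were those of ZACN (125 to 0) and MSANTD3-TMEFF1 (103 to 0). Both jumped between libraries over the whole course, and the latter is a read-through transcript whose interval overlaps MSANTD3 and TMEFF1.

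Genes known to respond to the added factors were followed in a list for each. Of 12 FGF response genes past the filter 2 fell, 0 rose and the median was -0.88, which became -1.57 under the filter of 200. The phosphatases DUSP6 and DUSP4, which feed back on ERK signalling, fell from 840 to 140 and from 350 to 72, and SPRY4 had 363 and 122. DUSP9, another phosphatase of the family and not on the list, rose from 32 to 362. Of 11 BMP response genes 1 fell, 0 rose and the median was -0.47, and NOG, an antagonist of BMP, had 8 and 38, under the filter. With 2.25% of all genes risen, 0 rises in lists of this size is not a result about them. ID1 had 872 and 628, ID3 1000 and 530, and ID2 568 and 1000. Each of these lists had a median below 0 also between day 9 and day 11, with -0.48 for FGF and -0.56 for BMP. Of 7 Wnt target and feedback genes past the filter, SP5 (302 to 39), NOTUM (212 to 28), NKD1 (102 to 16) and WLS (1734 to 266) fell and 0 rose. That list was written after falls among its genes had been seen, and its count supports nothing by itself. Ligands and receptors that rose include BMP4 (31 to 137), TGFB2 (6 to 56), PGF (18 to 159), the Wnt antagonist SFRP5 (6 to 102) and the Wnt receptor FZD5 (36 to 165).

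Genes of DNA replication and mitosis were lower on day 7 in 20 of 21 cases. The median log2 difference was -1.08, against 0.42 for the same 21 genes between day 9 and day 11, and 4 of them fell by 4-fold. TOP2A fell from 676 to 149, CDK1 from 622 to 146, CCNA2 from 162 to 39 and AURKB from 123 to 30. MKI67 had 400 and 122 and BUB1 180 and 48. Genes of the MCM helicase, which act in replication, differed less, from -0.80 for MCM5 to 0.16 for MCM2. The levels came back later, with CDK1 at 322 on day 9 and 584 on day 11 and TOP2A at 324 and 668. The interval of CCNA2 overlaps that of EXOSC9.

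Markers of other cell types were measured beside the hepatic genes. In bulk cultures, more cells of a type and more RNA per cell cannot be told apart, and this holds for every level given here. Of 12 stromal genes past the filter, 3 rose, 0 fell and the median was 1.51, and the summed value of the 16 found was 3137 on day 5, 6606 on day 7 and 23494 on day 9. COL3A1, a fibrillar collagen, rose from 111 to 2643 (ratio 23.8), COL6A3 from 9 to 78 and ACTA2 from 12 to 62. COL1A1 had 306 and 1107, PDGFRA 75 and 286, and LUM 43 and 145. Of the 12, 8 were higher and 4 lower on day 7. The lower ones include COL5A1 (1490 and 1021), TAGLN (545 and 265) and PDGFRB (53 and 42). Cardiac genes were split, with ACTC1 (69 to 1186), HAND1 (22 to 226) and MEF2C (5 to 69) risen, MYL7 (162 to 24) fallen and a median of -0.44 over 9, which became 1.13 when only larger values of 200 or more were used. Their sum was 1244 on day 5 and 1931 on day 7. Troponin C (TNNC1) had 540 and 153.

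Of 14 endothelial and blood genes found, 3 passed the filter. KDR, the VEGF receptor, had 240 on day 3 and rose from 42 to 270 between day 5 and day 7. TEK fell from 203 to 38 and VWF from 299 to 31. The median of the 3 genes was -2.39, and it was 0.86 over the whole list without a filter. The summed value was 615 on day 5 and 519 on day 7, and 3 of the 14 were listed at 0 on each day. Of the neural list only NES (703 and 527) and ZIC2 (226 and 122) passed, and of the other gut fates only the intestinal factor CDX2 was in the table, at 48 and 116. The retinoid list had 1 rise (RBP4) and 3 falls (CYP26A1, CRABP1 from 52 to 9 and RARG from 118 to 23) among 10. Its median of -0.60 became 0.46 under the filter of 200. ALDH1A1, which rose from 24 to 876, was counted with the liver enzymes and not in this list. Of 9 imprinted growth genes, H19 (63 to 474) and DLK1 rose and PEG10 (4856 to 980) fell, with a median of 1.05 that became 0.49 under the filter of 200. IGF2 had 62 and 124, and H19 and IGF2 were at 18734 and 2796 on day 9. Immediate early and stress genes had 0 rises and 0 falls among 10, with a median of -0.19. The metallothioneins MT1X and MT2A were listed at 0 on both days. The part that other cell types had in the risen and fallen genes was not tested.

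**Figure D3:**
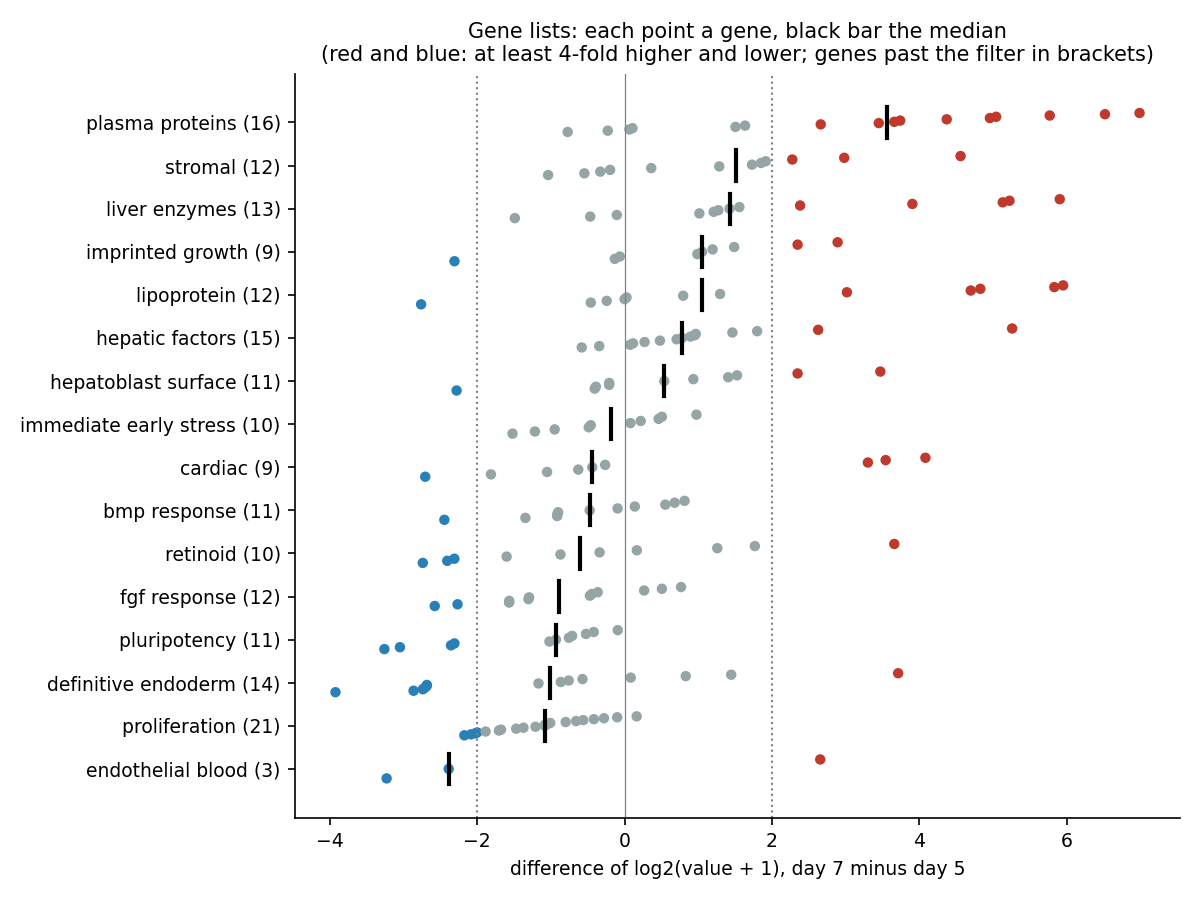
Difference of log2(value + 1), day 7 minus day 5, for each gene past the level filter in 16 gene lists, with the list median as a black bar and at least 4-fold differences in red and blue. Of the 16, the plasma protein list lies farthest right (median 3.56), the proliferation list is low as a whole (median -1.08), and the endothelial and blood list rests on 3 genes.

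The libraries on either side, day 3 and day 9, were not used to choose the genes. Over all genes, 6.58% of 9164 were at least 4-fold higher on day 9 than on day 3 and 4.54% were at least 4-fold lower. Of the 197 risen genes 189 passed the level filter in that pair, 167 were at least 4-fold higher on day 9 than on day 3 and 2 were lower. The 2 exceptions were NODAL and the Wnt receptor FZD5 (1108 on day 3, 36 on day 5, 165 on day 7 and 180 on day 9). Of the 117 fallen genes 92 passed the filter, 57 were at least 4-fold lower on day 9 than on day 3, and RELN (44 on day 3 and 186 on day 9) was higher. RELN, a secreted glycoprotein, still fell from 1386 to 334 between day 5 and day 7. Between day 3 and day 21, 10.1% of 9526 genes were higher and 9.12% lower. Of the risen genes 169 passed the filter in that pair, and 141 were higher and 3 lower over that span. Of the fallen genes 94 passed it, and 65 were lower and 4 higher.

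**Figure D4:**
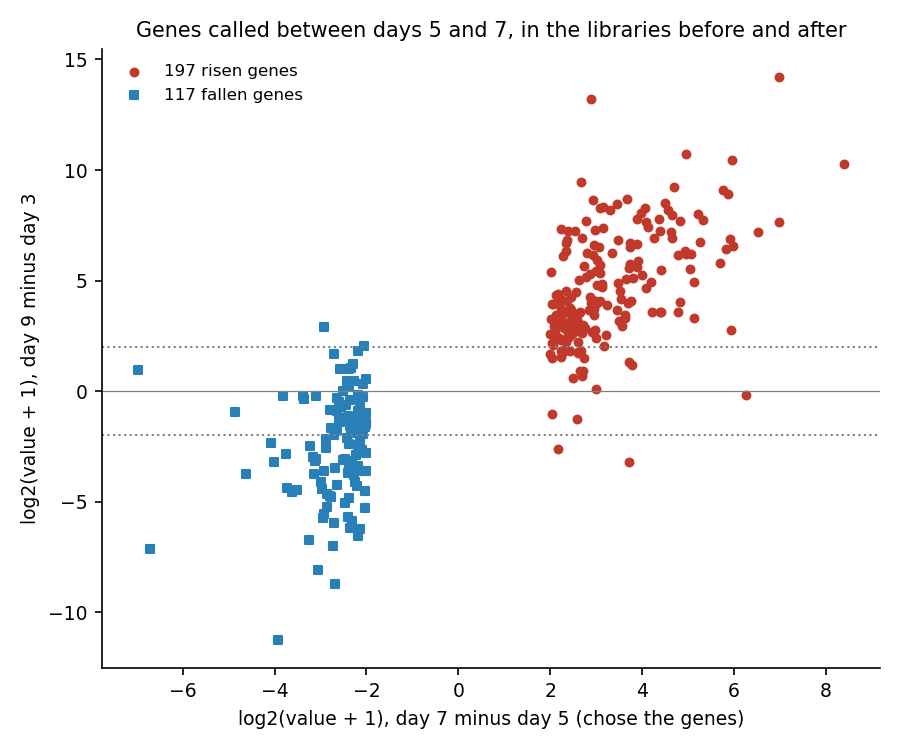
Difference of log2(value + 1) between day 9 and day 3 (y axis) against that between day 7 and day 5, which chose the genes (x axis), for all 197 risen and 117 fallen genes, with dotted lines at 4-fold on the y axis. Most risen genes lie above the upper line, NODAL and FZD5 lie below the lower line, and the fallen genes spread from far below the lower line to just above the upper.

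The day of the highest value of the course differed among the risen genes. Of the 197 risen genes 43 had their highest value of the course on day 7, 36 on day 9, 13 on day 11, 49 on day 13 and 53 on day 21. Of all genes considered 9.57% were highest on day 7 and 17.1% on day 21, but the choice of genes favours a high day 7. A tie was given to the first day, so that AFP, FGB and SPARC, which held their day 7 value on later days, are counted among the 43. Examples of short rises, named after their values were seen, are RASSF6 (34, 277, 84 and 29 on days 5, 7, 9 and 11), HABP2, a plasma protease (119, 568, 162 and 61), ENPP1 (22, 137, 28 and 13) and MYCL1 (46, 193, 47 and 36). ENPP1 and MYCL1 had been higher on day 3 than on day 5, at 68 and 96, and ENPP1 was at 98 on day 21. Of the 117 fallen genes 47 were highest on day 5 (40.2%), 24 on day 3 (20.5%), 9 on day 2 (7.69%), 15 on day 1 (12.8%) and 15 on day 0 (12.8%). For all genes considered these shares were 10.8%, 8.57%, 8.26%, 14% and 15%. The choice of fallen genes favours a high day 5. In 7 of the 117 and 2 of the 197 genes the difference between day 9 and day 11 was also 4-fold or more in size. Among them were RGPD5, RN7SL1 and CST1 of the fallen and UGT3A1 and ENTPD3 of the risen genes. No level filter was set on days 9 and 11 for this count. RP11-148B6.1 (36 and 0), VRTN (30 and 4) and MSANTD3-TMEFF1 (0 and 30) were under 50 on both days. With the filter, 0.107% of 8444 genes were 4-fold higher and 0.107% lower, and counts without it are given below.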

How the data were processed

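RNA of 10 days of H1 differentiation, 1 library per day, was used as 1 table of 12125 genes. Per the methods of the study and the submitters' processing notes, the authors aligned reads with Bowtie2 2.2.0 and RSEM 1.2.17 to an Ensembl transcriptome, and GC content was normalized with EDASeq. The transcriptome is named there by a mouse build, mm10, while cells and gene identifiers are human. The build hg19 is also listed, with no role. The values the authors deposited are scores, that is, whole numbers with nearly 1 shared distribution in all libraries, and not read counts, so depth is unknown, no counting interval is given and no count model was used. All 10 columns were matched to a day by name.

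Differences were taken as log2(value + 1), a pseudocount of 1 that understates changes of low genes, for genes with a larger value of at least 50, and called at 2 or more in size. No test was made, since each day has 1 library. The genes, the lists and the step itself were chosen with earlier results of these data known. Genes named are the markers AFP, APOA2 and TTR, the 15 largest rises and falls, list members at least 4-fold different, up to 4 members of each list with the highest values, and HNF4A, SOX17 and POU5F1. Other genes, the lists of Wnt, sterol and fibrinogen genes and the comparison of day 21 with day 3 were chosen after values were seen. Promoters came from a RefSeq table for GRCh38.p14 by gene symbol, trimmed to 250 bases before the start site. Python 3.11.15, numpy 2.4.6, pandas 2.3.3 and matplotlib 3.10.9 were used. Alternatives were pseudocounts of 5 and 0.1, scaling by the median of ratios, a larger value of at least 200, no filter, and leaving out genes at 2000 or more. The values of some single genes are left out of the text.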

Additional observations from a re-analysis of the deposited data

How the results depend on the processing

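The numbers of risen and fallen genes (197 and 117) became 71 and 56 when the larger value had to reach 200, and 408 and 280 without a filter. For day 11 minus day 9 the 9 and 9 genes became 2 and 2, and 58 and 67. The 167 risen genes that were also higher at day 9 than at day 3 became 63 and 315, and the 57 fallen genes 25 and 161. Pseudocounts of 5 and 0.1 and scaling by the median of ratios left every count within 1.5 times, with 178 to 200 risen and 99 to 118 fallen genes, of which 178 to 197 and 99 to 117 were shared with the sets above.

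Under the filter of 200 the list medians moved to -1.72 (definitive endoderm), -1.57 (FGF response), 1.13 (cardiac), 0.46 (retinoid) and 0.49 (imprinted growth). The cardiac and retinoid medians changed sign. Without a filter they moved to 2.22 (plasma proteins), -1.59 (Wnt feedback) and 4.96 (fibrinogen), and the endothelial and blood median, -2.39 over 3 genes, reversed to 0.86. Without genes at 2000 or more they moved to 2.66 (plasma proteins), 0.66 (lipoprotein), -0.21 (hepatoblast surface, a change of sign) and 4.96 (fibrinogen). A move is one of over 0.358, the SD of the day 11 minus day 9 differences. These alternatives change which genes are counted. Of the named genes 30 moved with a pseudocount of 5 and 14 with 0.1.

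No paired analysis was possible because each day has 1 library, and no replicate was left out for the same reason. Depth and the spread between cultures of 1 day are unknown, and changes at the top level of the scale cannot be seen.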

Other observations

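The following genes were risen or fallen between day 5 and day 7, belong to no list above and were grouped by known role after their values were seen, so that the groups carry no count or median. Among basement membrane and matrix genes, SPARC and LAMB1 both rose from 3430 to 18734, the top level, NID2 (nidogen-2) rose from 46 to 733, FMOD (fibromodulin) from 14 to 127, and the collagen prolyl hydroxylase P4HA1 from 231 to 2166. LAMB1 was back at 6496 on day 9, whereas SPARC stayed at 18734.

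Further genes of mitosis were lower, as the proliferation list was. UBE2C fell from 158 to 38, PTTG1 from 102 to 20, DLGAP5 from 214 to 41, CKS2 from 164 to 38 and the thymidine kinase TK1 from 173 to 42. By day 11 these were at 112, 90, 134, 84 and 125. CDKN1A, an inhibitor of the cell cycle, also fell, from 300 to 58.

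Genes of cell adhesion that are best known from neurons fell as well. PCDH10 went from 6502 to 758, NRCAM from 318 to 36, NFASC from 62 to 7, L1CAM from 153 to 26 and CDH8 from 244 to 53, while CDH6 rose from 20 to 308 and PCDH7 from 203 to 1217. The proprotein convertase PCSK2 fell from 263 to 65 and the deiodinase DIO2 from 209 to 45.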
